A study of Mus musculus with 9 samples.

Results

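Guanylate-binding proteins (GBPs) are large GTPases that cells make in quantity after interferon or bacterial stimulation, and 8 mouse genes of the family were followed here: Gbp2, Gbp3, Gbp4, Gbp5, Gbp6, Gbp7, Gbp8 and Gbp9. They were taken by gene symbol, with earlier results of these data known, and each of the 8 symbols matched 1 of the 51826 genes counted. In all, 3 treatments of RAW 264.7 cells, a mouse macrophage line, were sequenced as polyadenylated RNA, with 3 libraries each that the labels call biological replicates. Calycosin plus LPS cells received calycosin, an isoflavone, at 100 µg/mL for 24 h and then, for 6 h, 300 ng/mL of lipopolysaccharide (LPS), a bacterial cell wall component sensed through TLR4. LPS cells received that LPS exposure without calycosin, and vehicle cells received neither agent. Calycosin without LPS was not tested, so its action on resting cells is not covered.

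GBPs belong to the dynamin superfamily, in which GTP binding and hydrolysis drive the proteins to assemble on membranes. In mouse macrophages they coat pathogen vacuoles and the surface of bacteria, where they help to open the vacuole and expose bacterial LPS to the caspase-11 inflammasome. Their genes are classic targets of interferon: in LPS-treated macrophages, TLR4 signalling through IRF3 and NF-kappaB leads to interferon beta, which acts back on the cell through its receptor and IRF factors.

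The 8 genes lie in a pair of clusters, as annotated in GENCODE M21 on the GRCm38 build, and all 8 are annotated as protein coding. On chromosome 3, plus strand, the cluster holds Gbp5 (ENSMUSG00000105504, chr3:142493978-142522344), Gbp7 (ENSMUSG00000040253, chr3:142530342-142550149), Gbp3 (ENSMUSG00000028268, chr3:142560026-142573209) and Gbp2 (ENSMUSG00000028270, chr3:142620602-142638008). On chromosome 5, minus strand, it holds Gbp8 (ENSMUSG00000034438, chr5:105014150-105139540), Gbp9 (ENSMUSG00000029298, chr5:105077630-105139539), Gbp4 (ENSMUSG00000079363, chr5:105115767-105139586) and Gbp6 (ENSMUSG00000104713, chr5:105270702-105293698). The annotated spans of Gbp8, Gbp9 and Gbp4 overlap on the same strand, but any pair of these genes shares only 60 to 61 exonic bases. Gbp2b stands between Gbp3 and Gbp2, and Gbp10 and Gbp11 flank Gbp6; these 3 family genes are no members and serve for comparison.

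**Figure D1:**
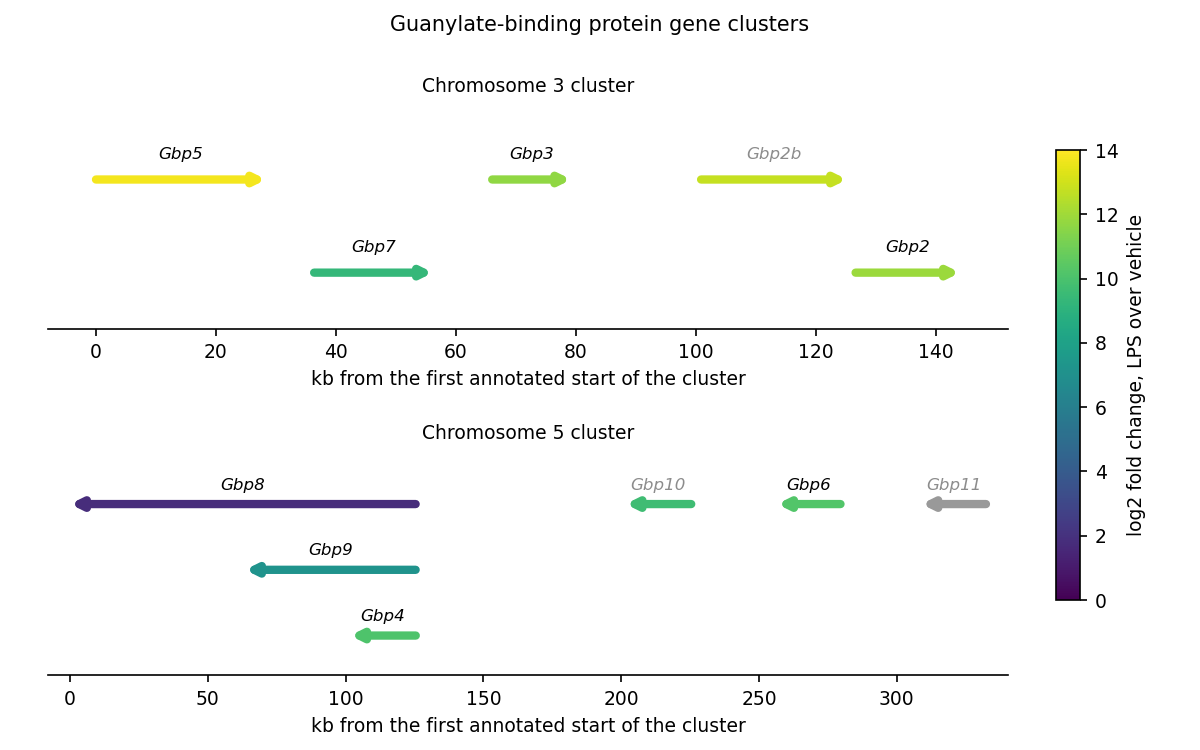
Each arrow is a gene drawn to scale in its direction of transcription, on an axis of kilobases from the first annotated start of its cluster, and its colour is the log2 fold change of LPS over vehicle. Grey names are family genes outside the 8, and the grey arrow is Gbp11, which had 0 counts in vehicle cells. Gbp8, the darkest arrow at 1.77, overlaps Gbp9 at 7.22 and Gbp4 at 10.08.

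Promoter windows of Gbp5, Gbp7, Gbp3 and Gbp2, the 4 members on chromosome 3, are shown for the binding letters of interferon-activated factors. Only these 4 members had a window in the RefSeq table used. The members on chromosome 5 had none, so the letters could not be compared between clusters or with expression level. Each window runs from 250 bases before to 50 bases after a RefSeq start, 5′ to 3′ on the plus strand of GRCm38.p6. The Gbp5 window lies wholly inside the GENCODE span, which begins earlier, at chr3:142493978, so its RefSeq start is not the GENCODE start. They lie at chr3:142496684-142496983 (Gbp5), chr3:142530086-142530385 (Gbp7), chr3:142559794-142560093 (Gbp3, the first of its 2 windows) and chr3:142620413-142620712 (Gbp2). Capitals mark matches on either strand to GAAA followed 2 bases later by GAAA, the core of the interferon-stimulated response element, which reads TTTC, 2 bases, TTTC on the other strand, and to TTCNNNGAA, the gamma-activated site of interferon-responsive promoters.
Gbp5: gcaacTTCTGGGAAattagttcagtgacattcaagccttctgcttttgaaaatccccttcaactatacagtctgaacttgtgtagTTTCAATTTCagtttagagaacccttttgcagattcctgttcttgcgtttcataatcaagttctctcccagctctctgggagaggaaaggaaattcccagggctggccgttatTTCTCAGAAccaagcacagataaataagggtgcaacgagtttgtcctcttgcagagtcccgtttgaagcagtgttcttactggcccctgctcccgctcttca
Gbp7: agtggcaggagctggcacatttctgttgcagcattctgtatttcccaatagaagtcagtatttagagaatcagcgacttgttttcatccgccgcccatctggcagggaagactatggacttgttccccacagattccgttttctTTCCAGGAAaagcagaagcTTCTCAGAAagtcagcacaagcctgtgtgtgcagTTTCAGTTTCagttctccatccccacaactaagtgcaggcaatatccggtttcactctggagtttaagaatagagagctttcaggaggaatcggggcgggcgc
Gbp3: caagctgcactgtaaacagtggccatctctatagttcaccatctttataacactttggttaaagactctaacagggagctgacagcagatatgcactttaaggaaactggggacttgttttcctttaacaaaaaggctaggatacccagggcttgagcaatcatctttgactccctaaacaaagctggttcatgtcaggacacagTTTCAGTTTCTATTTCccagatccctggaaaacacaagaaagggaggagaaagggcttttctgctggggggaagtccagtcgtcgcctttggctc
Gbp2: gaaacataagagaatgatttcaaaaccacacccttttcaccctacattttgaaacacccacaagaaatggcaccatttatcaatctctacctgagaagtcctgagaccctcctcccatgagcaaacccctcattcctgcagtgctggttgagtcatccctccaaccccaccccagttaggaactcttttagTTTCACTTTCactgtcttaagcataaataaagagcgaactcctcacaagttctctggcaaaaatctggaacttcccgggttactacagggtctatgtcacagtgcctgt
All 4 genes hold the interferon-stimulated core, which is present in 3.44% of the 32851 promoter windows in the RefSeq table. It begins 59 bases upstream of the RefSeq start in Gbp2, 53 in Gbp7 and 165 in Gbp5. In Gbp3 a pair of matches overlaps, at 45 and 39 bases. The gamma-activated site occurs in Gbp5 and Gbp7 and in 8.3% of all windows. Another pattern, GGG and CC with 5 bases of any kind between them, a loose shape of an NF-kappaB site, matched in Gbp5, Gbp3 and Gbp2 and in 50.8% of all windows. The second Gbp3 window, at chr3:142560106-142560405, held none of these patterns. These are matches of letters only, and factor binding was not measured.

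Paralogs of the family share sequence, and whether reads that map to several places were counted is not given in the sources used here. Compared in runs of 100 bases between longest annotated transcripts, Gbp2 shared 0% with any other gene, Gbp5 0.273%, Gbp3 0.929%, Gbp9 1.74%, Gbp4 2.88% and Gbp8 4.36%. Gbp7 shared 10.2%, of which most matched the pseudogene Gm43802, which lies inside the annotated span of Gbp7 on the same strand. The 2 genes share 637 exonic bases, 11.3% of those of Gbp7. The count of Gm43802 never exceeded 4 in a library, but how reads over both genes were counted is not given. Gbp6 stood apart at 51.3%, with 43.0% in common with the overlapping annotated gene Gm43302 and 30.9% with Gbp10, so its level could not be separated fully from those of its neighbours.

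Total counts ran from 27784737 to 38524105 per library. Levels are given in CPM, counts scaled to the effective library size, which compares 1 gene between libraries, and in TPM, which also corrects for transcript length and is used to compare genes with each other. The mitochondrial share of counts was 3.68% to 21.9%, and vehicle library 3 (21.9%) and calycosin plus LPS library 2 (7.45%) lay apart from the others of their groups. Those others also differed by group. The share was 3.79% and 3.68% in vehicle libraries 1 and 2, and 17.2% and 19.4% in calycosin plus LPS libraries 1 and 3. In LPS libraries it was 13.0% to 14.7%. The 9 macrophage markers all had counts in every group. Their summed level was 3680.3 to 4320.1 CPM with calycosin plus LPS, 5184.6 to 5426.6 CPM with LPS and 4816.4 to 5302.0 CPM with vehicle. These sums hide opposite moves. Of 8 markers tested, LPS over vehicle gave 4 higher and 2 lower (Csf1r and Lyz2), beside 27.3% higher and 28.9% lower among all genes. Calycosin plus LPS against LPS gave 3 lower (Cd14, Ptprc and Lyz2) and none higher, beside 12.9% lower and 16.1% higher among all genes. For 14 markers of other cell types the sums were 1.57 to 2.19 CPM with calycosin plus LPS, 4.78 to 6.60 CPM with LPS and 1.32 to 1.52 CPM with vehicle, with 6, 8 and 7 of them at 0 counts. Only 3 of the 14 could be tested, and they did not move together. Cdh5, an endothelial cadherin, stood at 0.67 CPM with calycosin plus LPS, 4.76 CPM with LPS and 0.35 CPM with vehicle. Zbtb46 went the other way, at 0.87 CPM with calycosin plus LPS, 0.11 CPM with LPS and 0.50 CPM with vehicle. Pecam1 was not called in any comparison. The part of these marker differences in the results was not tested.

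LPS raised all 8 genes over vehicle, and for each of them every LPS library lay above every vehicle library. Among all 14458 genes tested, 27.3% were called higher and 28.9% lower by edgeR's quasi-likelihood test at an adjusted p of 0.05, and 29.5% were higher without overlap. The median log2 fold change of the 8 genes was 10.14, against -0.07 over all genes tested. In the fit, 5 of the 8 were at least 1000-fold higher, a size that 0.318% of all genes reached. Gbp6 and Gbp4 lay close to that size: Gbp6 was below it without vehicle library 1 (log2 fold change 9.88) or 2 (9.75), and Gbp4 without vehicle library 3 (9.75) or LPS library 2 (9.93). In bulk samples, fewer cells expressing a gene and less RNA per cell cannot be told apart.

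Gbp5, which in mouse macrophages has been tied to assembly of the NLRP3 inflammasome, differed most between the groups. It had 852.0, 870.9 and 948.6 CPM in LPS cells, against 0.040, 0.062 and 0.091 CPM in vehicle cells. The vehicle libraries held only 2, 3 and 3 reads of this gene, so the vehicle group lay at or below 3 counts per library. Its log2 fold change was 13.75 (SE 0.22, adjusted p = 1.29e-09), at rank 5 of 14458 genes by size. The ratio of pooled counts was 14646, with a 95% counting interval of 7432 to 33925.

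Gbp2, a prenylated member that is recruited to Toxoplasma vacuoles in mouse cells, had 747.0, 745.8 and 846.1 CPM in LPS cells, against 0.20, 0.27 and 0.12 CPM in vehicle cells. These vehicle levels came from 10, 13 and 4 counts. The log2 fold change was 11.88 (SE 0.23, adjusted p = 1.36e-09), at rank 22. Gbp3, one of the chromosome 3 genes whose joint deletion in mice blunts caspase-11 activation, was close to Gbp2. It had 889.7, 865.8 and 944.4 CPM in LPS cells, against 0.22, 0.23 and 0.40 CPM in vehicle cells. Its log2 fold change was 11.68 (SE 0.23, adjusted p = 1.36e-09), at rank 24. For both genes the LPS libraries differed among themselves by far less than they differed from the vehicle libraries.

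Gbp7, linked in mouse macrophages to assembly of the phagocyte oxidase and to autophagy, started from a higher resting level than the other 3 genes on chromosome 3. It had 910.1, 948.9 and 745.2 CPM in LPS cells, against 1.06, 1.25 and 1.76 CPM in vehicle cells, where 53 to 61 counts per library were found. The rise was 9.33 on the log2 scale (SE 0.26, adjusted p = 6.41e-09), at rank 65. Within LPS cells Gbp7 thus stood among the most counted members, while its fold was the lowest of the 4 genes in its cluster.

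On chromosome 5, Gbp6 and Gbp4 were nearly silent in vehicle cells. Gbp6 had 112.9, 111.8 and 113.0 CPM in LPS cells, against 0.060, 0.041 and 0.21 CPM in vehicle cells. Gbp4 had 70.3, 114.1 and 97.9 CPM in LPS cells, against 0.080, 0.12 and 0.030 CPM in vehicle cells. The Gbp6 libraries within LPS were almost level, whereas those of Gbp4 spread widely. Their log2 fold changes were 10.19 (SE 0.35, adjusted p = 1.60e-08) for Gbp6 and 10.08 (SE 0.32, adjusted p = 1.07e-08) for Gbp4. With vehicle counts of only 2 to 7 for Gbp6 and 1 to 6 for Gbp4, the folds rest on few reads, and without vehicle library 3 the log2 fold change of Gbp6 was 10.96. The pooled count ratios carry wide 95% intervals, 705.0 to 2386 for Gbp6 and 633.3 to 2272 for Gbp4.

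Gbp9 had 248.1, 269.8 and 213.9 CPM in LPS cells, against 1.52, 1.40 and 2.04 CPM in vehicle cells. Gbp9 rose by 7.22 on the log2 scale (SE 0.21, adjusted p = 7.84e-09), at rank 130. Gbp8 had 86.5, 82.8 and 79.6 CPM in LPS cells, against 20.99, 22.8 and 29.2 CPM in vehicle cells. It was thus well expressed at rest and rose 3.41-fold, or 1.77 on the log2 scale (SE 0.15, adjusted p = 8.38e-06), at rank 1295. Gbp8 and Gbp9 have annotated ends within 1 base of each other on the 5′ side, at chr5:105139540 and chr5:105139539. Their log2 fold changes were those of the least and the second least raised of the 8 genes. Gbp4, whose 5′ end lies close by at chr5:105139586, rose by 10.08 on the log2 scale.

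**Figure D2:**
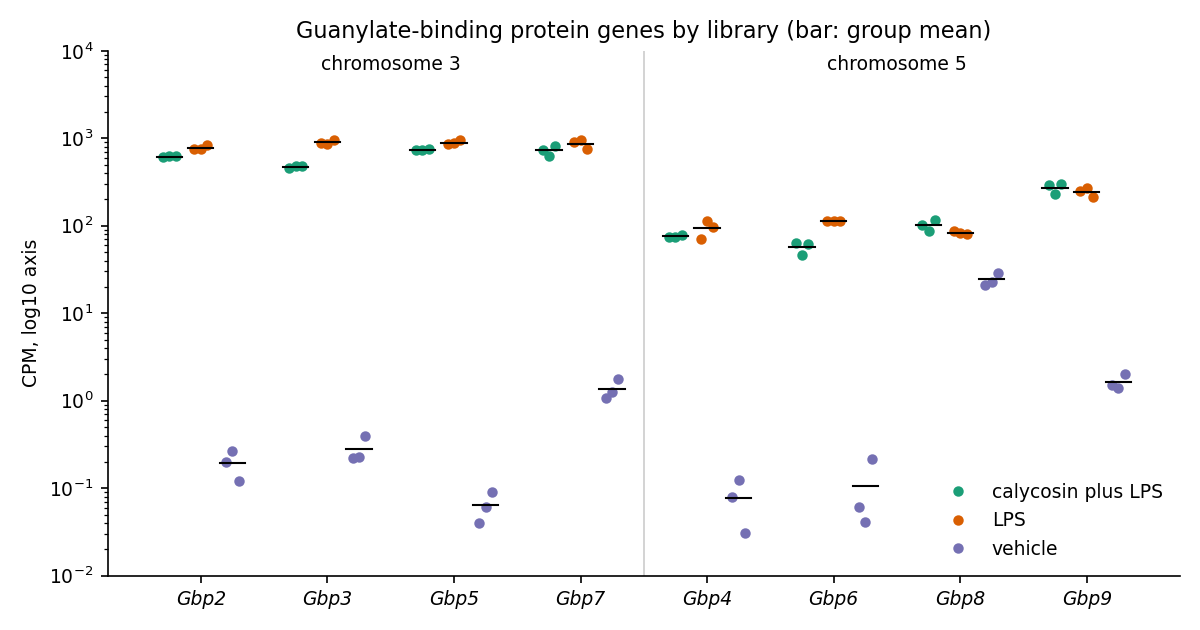
CPM of each gene in each library on a log axis, with a point per library, a bar at each group mean, and calycosin plus LPS, LPS and vehicle from left to right. Gbp8 lies at 20.99 to 29.2 CPM in vehicle cells, while the other 7 genes lie at or below 2.04 CPM there.

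Per transcript length, Gbp8 was the leading member in resting cells, with traces of the others. In vehicle cells Gbp8 averaged 20.4 ± 2.93 TPM (SD, n = 3), and the next 2 genes, Gbp7 and Gbp9, averaged 0.77 and 0.76 TPM and overlapped each other. Gbp8 made up 90.4% ± 1.98 of the summed TPM of the 8 genes in vehicle cells. In LPS cells that share was 2.47% ± 0.17, although the Gbp8 level itself was higher. There Gbp3 led with 452.3 ± 35.8 TPM, followed by Gbp2 with 411.1 ± 43.7 TPM and Gbp5 with 380.2 ± 36.1 TPM. Libraries of Gbp3 overlapped those of Gbp2, and those of Gbp2 overlapped Gbp5. Below them stood Gbp7 at 210.1 TPM, Gbp9 at 66.5 TPM and Gbp8 at 40.2 TPM, each apart from its neighbours. Gbp6 at 35.4 TPM and Gbp4 at 32.7 TPM came last and overlapped.

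With calycosin plus LPS the family stayed far above vehicle. All 8 genes were called higher than in vehicle cells, without overlap, where 25.4% of all genes were called higher and 29.1% were higher without overlap. This comparison and that of LPS cells use the same vehicle libraries. For Gbp5 the log2 fold change over vehicle was 13.48 with calycosin plus LPS and 13.75 with LPS. For Gbp3 it was 10.74 with calycosin plus LPS and 11.68 with LPS, and for Gbp8 it was 2.08 with calycosin plus LPS and 1.77 with LPS. The Gbp8 value with calycosin plus LPS is a 4.22-fold rise over vehicle (adjusted p = 4.56e-06).

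Set directly against LPS cells, calycosin plus LPS cells had less Gbp3 and Gbp6. These were the 2 of 8 genes called lower by edgeR's quasi-likelihood test, none was called higher, and the other 6 did not pass. Among all genes tested, 12.9% were called lower and 16.1% higher, so the members' share called in either direction stands beside 29.1% for all genes. The LPS libraries enter both this comparison and that of LPS with vehicle.

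Gbp3 had 451.4, 475.4 and 482.6 CPM in calycosin plus LPS cells, against 889.7, 865.8 and 944.4 CPM in LPS cells. The groups lay far apart, and each was tight. The level was 1.92-fold lower, or -0.94 on the log2 scale (SE 0.14, 95% interval -1.25 to -0.63, adjusted p = 0.00124). Gbp6 had 62.9, 46.7 and 62.2 CPM in calycosin plus LPS cells, against 112.9, 111.8 and 113.0 CPM in LPS cells. Calycosin plus LPS library 2, which also stood apart in mitochondrial share, had the lowest value. The level was 1.97-fold lower, or -0.98 on the log2 scale (SE 0.21, 95% interval -1.44 to -0.51, adjusted p = 0.00689). Without that library the log2 fold change of Gbp6 was -0.84 (adjusted p = 0.0282).

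Since Gbp6 shares exons and sequence with Gm43302 and Gbp10, the counts of the 3 genes were also summed and tested as 1, an alternative added after the data were seen. Calycosin plus LPS again lay below LPS in this sum, at -0.79 on the log2 scale (adjusted p = 0.00645). Gbp10 alone had a log2 fold change of -0.35 (adjusted p = 0.236), and Gm43302 alone had -0.82 (adjusted p = 0.0229).

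Gbp2 and Gbp5 were the genes next to Gbp3 in abundance. In CPM both were lower in every calycosin plus LPS library than in any LPS library, but neither passed the test. These CPM depend on library scaling factors, 0.942, 1.11 and 0.896 with calycosin plus LPS against 0.791, 0.786 and 0.813 with LPS. In TPM the groups overlapped for both genes. Mean TPM was 414.6 for Gbp2 and 400.3 for Gbp5 with calycosin plus LPS, against 411.1 and 380.2 with LPS. Gbp2 had 606.8, 619.8 and 625.0 CPM with calycosin plus LPS, against 747.0, 745.8 and 846.1 CPM with LPS. Its log2 fold change was -0.34 (95% interval -0.65 to -0.03, adjusted p = 0.0955). Gbp5 had 728.2, 736.8 and 763.0 CPM with calycosin plus LPS, against 852.0, 870.9 and 948.6 CPM with LPS. The log2 fold change was -0.26 (95% interval -0.53 to 0.01, adjusted p = 0.132). The Gbp3 estimate of -0.94 lies outside both intervals. However, the Gbp3 interval, -1.25 to -0.63, overlaps that of Gbp2, though not that of Gbp5. Comparing intervals in this way is no test of a difference between genes. Among all genes tested 23.4% were lower without overlap and 26.3% higher, against 4 of the 8 (Gbp2, Gbp3, Gbp5 and Gbp6) lower and 1 (Gbp8) higher.

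The other 4 genes did not pass either. Gbp4 had 74.3, 74.8 and 79.2 CPM with calycosin plus LPS, against 70.3, 114.1 and 97.9 CPM with LPS, and the groups overlapped (log2 fold change -0.31, 95% interval -0.73 to 0.11). Gbp7 had 739.4, 622.6 and 816.3 CPM with calycosin plus LPS, against 910.1, 948.9 and 745.2 CPM with LPS, again with overlap (-0.26 on the log2 scale, 95% interval -0.66 to 0.15). Gbp9 had 289.9, 228.8 and 299.6 CPM with calycosin plus LPS, against 248.1, 269.8 and 213.9 CPM with LPS, and also overlapped (0.16, 95% interval -0.20 to 0.52). The intervals of these 3 genes each include 0 and values of either sign. Gbp8 was the exception in direction without overlap, at 103.2, 87.8 and 116.9 CPM with calycosin plus LPS, against 86.5, 82.8 and 79.6 CPM with LPS. Its log2 fold change was 0.31 (95% interval -0.03 to 0.64, adjusted p = 0.152). Without vehicle library 3, which enters only through the shared spread and scaling, Gbp8 passed (adjusted p = 0.0476), and so did Gbp2 as lower (adjusted p = 0.0218).

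**Figure D3:**
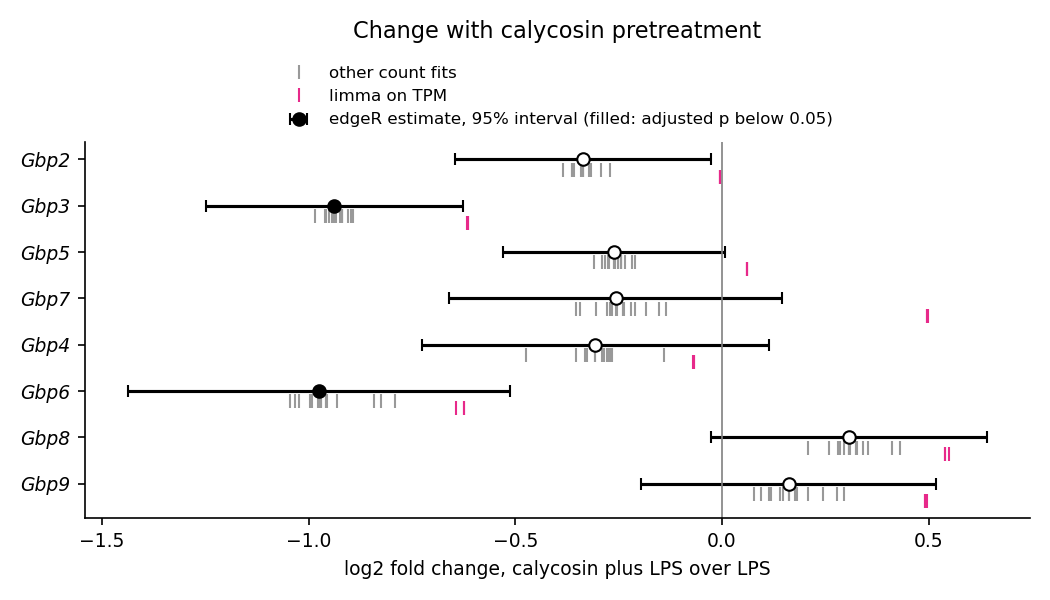
Difference of calycosin plus LPS from LPS on the log2 scale, for each of the 8 genes, as circles with 95% intervals from edgeR (filled where called); grey ticks are the other count fits and pink ticks the fits of limma on TPM. The intervals of Gbp3 (-1.25 to -0.63) and Gbp6 (-1.44 to -0.51) lie farthest below 0, and those of Gbp8 and Gbp9 are centred above 0.

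The calls of Gbp3 and Gbp6 did not hold in limma on log2(TPM + 1) after a filter on low TPM, where the values, their scaling, the filter and the test all differ from the count fit. In the authors' TPM values Gbp3 averaged 298.9 ± 65.8 in calycosin plus LPS cells and 452.3 ± 35.8 in LPS cells (SD, n = 3 each), and Gbp6 averaged 22.7 TPM in calycosin plus LPS cells and 35.4 TPM in LPS cells. On log2(TPM + 1) with limma, Gbp3 had a log2 difference of -0.62 (adjusted p = 0.0869) and Gbp6 of -0.62 (adjusted p = 0.0624). Without the filter on low TPM, Gbp6 passed (adjusted p = 0.0349) and Gbp3 did not (adjusted p = 0.0911). The median of all genes was 0.19 higher in calycosin plus LPS cells on that scale. Relative to that median, Gbp3 stood at -0.80 and Gbp6 at -0.81, against -0.96 for Gbp3 relative to the median in the count fit. Gbp5 turned to 0.06 and Gbp7 to 0.50 on the TPM scale; relative to the median Gbp5 stood at -0.13 and Gbp7 at 0.31.

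Gbp7 was the member on which counts and TPM disagreed most. Its counts per TPM, corrected for the library and set relative to the gene's own median over 6 libraries, were 0.658, 0.653 and 1.02 in calycosin plus LPS cells, against 0.997, 1.01 and 1.00 in LPS cells. Calycosin plus LPS libraries 1 and 2 thus gave more TPM per Gbp7 count than the other 4 libraries.

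The summed level of the 8 genes also depended on the scale. It was 3064.5 ± 176.2 CPM in calycosin plus LPS cells, 3971.8 ± 48.9 CPM in LPS cells and 28.1 ± 5.09 CPM in vehicle cells (SD, n = 3 each). In TPM it was 1625 ± 329 in calycosin plus LPS cells, 1629 ± 89.9 in LPS cells and 22.5 ± 3.08 in vehicle cells. As a share of all counts it was 0.300% ± 0.018 with calycosin plus LPS, 0.316% ± 0.0074 with LPS and 0.00357% ± 0.00015 with vehicle. CPM separated the LPS and calycosin plus LPS sums, and TPM did not.

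A ratio of members within a library needs no scaling between libraries, and 5 of the 7 ratios to Gbp2 counts did not overlap between the LPS-treated groups, 2 being lower and 3 higher with calycosin plus LPS. Among the 14457 genes tested beside Gbp2, 9.6% had a lower and 45.9% a higher ratio to Gbp2 without overlap, so higher ratios were common across the table. Gbp3 counts were 0.744, 0.767 and 0.772 of the Gbp2 counts in calycosin plus LPS cells, against 1.19, 1.16 and 1.12 in LPS cells. Gbp3 was therefore below Gbp2 in each library with calycosin plus LPS and above it in each library with LPS alone. Gbp6 counts were 0.104, 0.0753 and 0.0995 of the Gbp2 counts in calycosin plus LPS cells, against 0.151, 0.150 and 0.134 in LPS cells. Gbp8 went the other way, at 0.170, 0.142 and 0.187 in calycosin plus LPS cells, against 0.116, 0.111 and 0.0941 in LPS cells. For these 3 genes the groups did not overlap, and the log2 differences were -0.60 for Gbp3, -0.65 for Gbp6 and 0.63 for Gbp8. The TPM values gave nearly the same differences, -0.61 for Gbp3, -0.64 for Gbp6 and 0.55 for Gbp8.

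Ratios of Gbp9 and Gbp5 to Gbp2 were also higher with calycosin plus LPS without overlap, by 0.49 for Gbp9 and 0.07 for Gbp5 on the log2 scale of counts. Those of Gbp4 and Gbp7 overlapped in counts, while in TPM the Gbp7 ratio was higher without overlap, by 0.50, and the Gbp5 ratio overlapped. The 5 ratios without overlap each had an exact permutation p of 0.1 (two-sided), the smallest that 3 against 3 libraries allow, and 0.14 after Benjamini-Hochberg adjustment over the 7 ratios. No ratio could thus reach the threshold of 0.05.

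**Figure D4:**
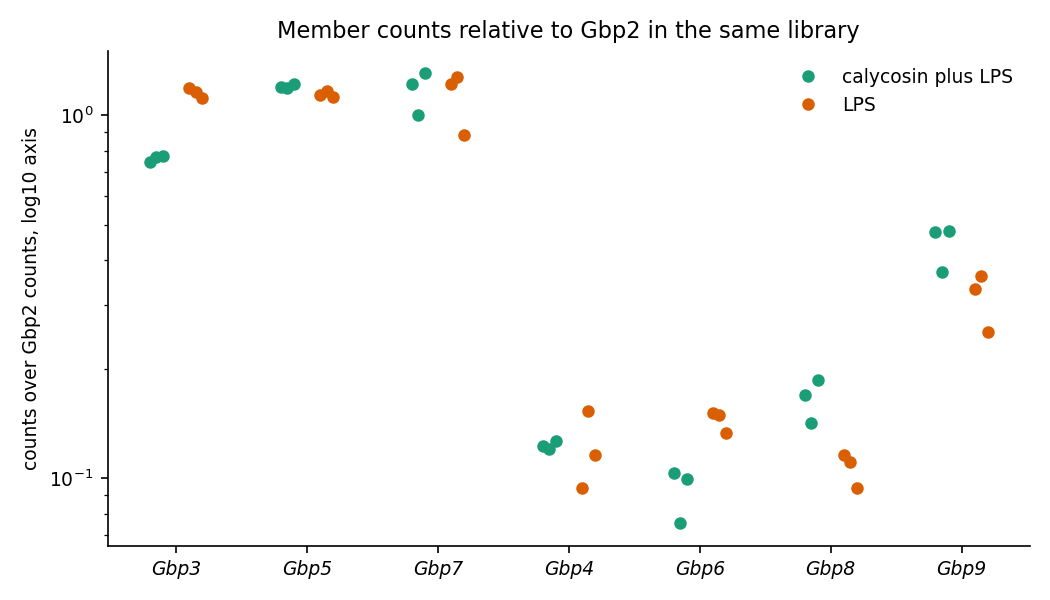
Ratio of each gene's counts to those of Gbp2 in the same library, for calycosin plus LPS and LPS libraries, on a log axis with one point per library. Gbp3 sits at 0.744 to 0.772 with calycosin plus LPS and at 1.12 to 1.19 with LPS, and Gbp8 sits at 0.142 to 0.187 with calycosin plus LPS and at 0.0941 to 0.116 with LPS.

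In the share of summed TPM, Gbp3 took 18.4% ± 0.70 with calycosin plus LPS, 27.8% ± 0.94 with LPS and 1.39% ± 0.61 with vehicle (SD, n = 3 each). Gbp2 took 25.5% with calycosin plus LPS and 25.2% with LPS. Gbp7 took 18.6% ± 2.90 with calycosin plus LPS and 13.0% ± 1.95 with LPS, and Gbp8 took 3.69% ± 0.53 with calycosin plus LPS and 2.47% ± 0.17 with LPS. In the order by TPM, Gbp2, Gbp5, Gbp7 and Gbp3 led in calycosin plus LPS cells, each overlapping the next. The places of Gbp7 and Gbp3 there rest on libraries 1 and 2, in which Gbp7 gave more TPM per count; in library 3 Gbp3 had 253.4 TPM and Gbp7 209.6 TPM.

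**Figure D5:**
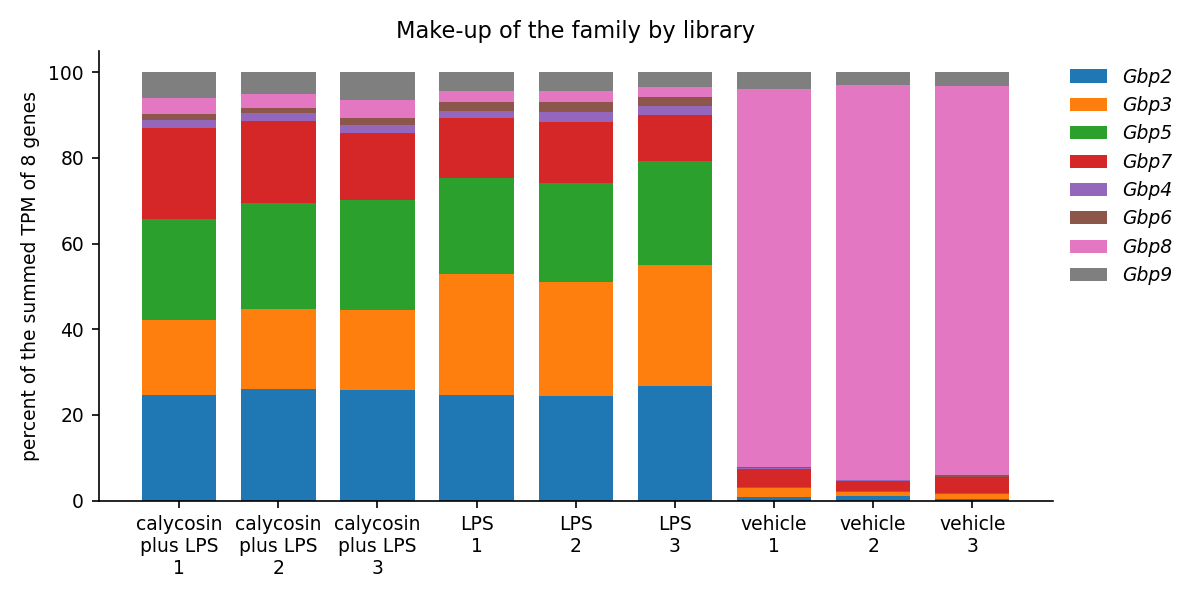
Share of the summed TPM of the 8 genes, in percent, taken by each gene in each of the 9 libraries. Gbp8 fills 90.4% of the vehicle bars on average and 2.47% of the LPS bars, and Gbp3 takes 18.4% with calycosin plus LPS and 27.8% with LPS.

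The 3 family genes outside the 8 were all raised by LPS. Of these, 2, Gbp2b and Gbp11, were called lower with calycosin plus LPS against LPS. Among all genes, 27.3% were called higher with LPS and 12.9% lower with calycosin plus LPS against LPS. Gbp2b averaged 922.4 ± 153.1 CPM with calycosin plus LPS, 1401.6 ± 106.9 CPM with LPS and 0.19 ± 0.061 CPM with vehicle, with a log2 fold change of calycosin plus LPS against LPS of -0.60 (adjusted p = 0.0231). Gbp11, annotated as a polymorphic pseudogene, averaged 19.0 ± 0.78 CPM with calycosin plus LPS and 34.3 ± 1.00 CPM with LPS (log2 fold change -0.85, adjusted p = 0.00176). It had 0 counts in all vehicle libraries and was at least 482.7-fold higher with LPS, taking 3 counts per library as the floor.

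Immunity-related GTPases, which work beside GBPs on pathogen vacuoles, were raised by LPS in 10 of 10 cases, where 27.3% of all genes were called higher. With calycosin plus LPS against LPS, 5 of the 10 were called lower and none higher, beside 12.9% lower and 16.1% higher among all genes. Their median log2 fold change was -0.59, against 0.02 over all genes tested. Iigp1, an effector that binds vacuole membranes, averaged 82.2 ± 2.77 CPM with calycosin plus LPS and 154.5 ± 3.76 CPM with LPS (log2 fold change -0.91, adjusted p = 6.43e-04). Irgm1, which regulates the effector members, averaged 568.5 ± 73.4 CPM with calycosin plus LPS and 757.9 ± 29.9 CPM with LPS (log2 fold change -0.41, adjusted p = 0.0473). Tgtp2 showed the largest fall of the list, with a log2 fold change of -1.54 (adjusted p = 2.62e-04).

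Of 23 genes for the induction of GBPs, covering interferons, their receptors, kinases, transcription factors and feedback inhibitors, 22 could be tested. LPS raised 19 and lowered none, and calycosin plus LPS against LPS gave 3 higher, 7 lower and 12 not called. Among all genes, 27.3% were called higher with LPS, and 16.1% higher and 12.9% lower with calycosin plus LPS against LPS. Ifnb1, the interferon beta gene, averaged 5.47 ± 1.07 CPM with calycosin plus LPS, 3.90 ± 1.04 CPM with LPS and 0.013 CPM with vehicle, where 2 counts were found in all. With calycosin plus LPS against LPS it did not pass (log2 fold change 0.49, adjusted p = 0.277). Irf7, an amplifier of interferon genes, averaged 319.6 ± 21.9 CPM with calycosin plus LPS and 580.0 ± 42.0 CPM with LPS (log2 fold change -0.86, adjusted p = 6.40e-04). Irf1, an interferon response factor gene named after its values were seen, was higher, at 207.7 ± 10.9 CPM with calycosin plus LPS and 119.5 ± 13.0 CPM with LPS (log2 fold change 0.80, adjusted p = 0.00205). Irf9, named in the same way, was lower, at 69.2 ± 7.33 CPM with calycosin plus LPS and 123.5 ± 5.07 CPM with LPS (log2 fold change -0.84, adjusted p = 5.89e-04). Nfkb1, an NF-kappaB subunit gene, was lower at 396.8 ± 30.4 CPM with calycosin plus LPS and 802.4 ± 57.3 CPM with LPS. The cytokine signalling inhibitors diverged: Socs3 had a log2 fold change of -2.51 (adjusted p = 5.94e-05) and Socs1 of 1.01 (adjusted p = 0.00344).

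Downstream of GBPs, 11 of 12 inflammasome genes could be tested, of which LPS raised 10, where 27.3% of all genes were called higher. With calycosin plus LPS against LPS, 4 were called lower, none higher and 7 not called, beside 12.9% lower and 16.1% higher among all genes. Casp4, the gene of caspase-11, did not pass, at 241.6 ± 29.0 CPM with calycosin plus LPS and 266.1 ± 26.2 CPM with LPS (log2 fold change -0.14, adjusted p = 0.5999), and Nlrp3 had 0.14 (adjusted p = 0.502). Casp1, the protease of canonical inflammasomes, averaged 118.7 ± 8.77 CPM with calycosin plus LPS and 282.2 ± 24.3 CPM with LPS (log2 fold change -1.25, adjusted p = 4.63e-04). Gsdmd, the pore-forming substrate of inflammatory caspases, averaged 71.7 ± 12.8 CPM with calycosin plus LPS and 130.7 ± 8.07 CPM with LPS (log2 fold change -0.87, adjusted p = 0.0172). Casp8 was also lower, with a log2 fold change of -0.80 (adjusted p = 0.00147). Il1b, the cytokine gene, fell most, to 0.33 ± 0.14 CPM with calycosin plus LPS, against 35.2 ± 3.43 CPM with LPS.

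Of 12 genes that guide GBPs to vacuoles through autophagy conjugation, LPS raised 4 and lowered 2; calycosin plus LPS against LPS gave 1 higher (Atg5, log2 fold change 0.43) and 1 lower (Atg7, log2 fold change -0.82). Of 8 prenylation genes, whose enzymes make, add or further process the lipid anchor of some GBPs, LPS raised 4 and lowered 3. In that list calycosin plus LPS against LPS gave 1 higher (Icmt, 0.61) and 1 lower (Fntb, -0.72). Of 9 other dynamin superfamily genes, LPS raised 4 and lowered 2. Calycosin plus LPS against LPS gave 2 higher, Dnm1 (log2 fold change 1.15) and Atl2 (0.55), and 1 lower, the antiviral gene Mx2 (-0.75). Beside the counts of these lists, 27.3% of all genes were called higher and 28.9% lower with LPS over vehicle. For calycosin plus LPS against LPS the shares were 16.1% higher and 12.9% lower.

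Profiles over the 9 libraries were compared by Euclidean distance between log2 CPM centred on each gene's mean, searched among 11908 genes outside the 8. Gbp2 was nearest to the antiviral genes Mx1 (distance 0.58) and Rsad2 (0.97). Gbp3 was nearest to the immunity-related GTPase gene Iigp1 (0.57) and to Slfn1 (1.17). Gbp6 was nearest to Ifi209 (0.27) and Ifi211 (0.70), and Gbp7 to Zbp1 (0.43) and Trim30c (0.65). Trim30c (0.99) and Il27 (1.07) were closest to Gbp4, Gbp2b (1.33) and Cxcl10 (1.43) to Gbp5, and Ddx60 (0.69) and Gm12250 (1.04) to Gbp9. Gbp8 had Cwf19l2 (0.39) among its 2 nearest genes and stood at a distance of 7.53 from its nearest member, Gbp9. The log2 fold changes of LPS over vehicle were 1.77 for Gbp8 and 7.22 for Gbp9. For the other 7 genes the nearest member stood at distances of 1.17 to 2.76. These distances describe 9 libraries in 3 groups, and all genes share those libraries. Profiles were not scaled to equal spread, so near genes are largely those with a similar size of change over vehicle. The distances therefore add little to the fold changes given above.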

How the data were processed

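Polyadenylated RNA of 9 libraries was analysed from 2 deposited tables. The first holds raw gene counts, whole numbers for 51826 genes by Ensembl identifier, as the authors deposited them. TPM values were deposited by the authors for 51799 genes, in the layout of StringTie per the file headers. Per the submitters' processing notes, Trimmomatic 0.36, HISAT2 2.0, StringTie 1.3.3b and build mm10 were used; for the counter, its strand setting and its handling of reads with several matches, nothing is given in the sources used here. Of the identifiers, 51633 were found in GENCODE M21 (GRCm38).

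Genes were filtered with filterByExpr, which left 14458 and all 8 members, and scaled by TMM (factors 0.786 to 1.42). All 9 libraries entered 1 model in edgeR 4.0.16 (R 4.3.3), with a two-sided quasi-likelihood test, Benjamini-Hochberg adjustment over all genes tested and a threshold of 0.05. P-values measure the spread between the libraries, which the labels call biological replicates. A count of 0 was read as up to 3 counts (0.0602 to 0.137 CPM). Ratios of pooled counts carry exact 95% binomial intervals, which, like the floor, cover counting error only. The fit was also run on simulated counts in which only a small part of the genes changed, and checked for LPS over vehicle only. Broad shifts between groups, as found in these data, were not simulated. No 2 libraries were duplicates. Alternatives were DESeq2 1.42.0, limma 3.58.1 on log2(TPM + 1), other scalings and filters, omitted libraries, a mitochondrial covariate and a replicate block. Transcript overlap was counted in shared runs of 100 bases. All 8 members were named, and of each list up to 4 called genes with the largest change per comparison were eligible. Ifnb1 and Nlrp3 were eligible in LPS over vehicle, and Casp4 in calycosin plus LPS over vehicle. Their values against LPS are given although they were not called there. Irf1, Irf9 and Pecam1 were named outside this rule. Likeness used genes with a mean of at least 1 CPM and a prior count of 2, taking 2 genes per member, of which 1 is not reported here. The members and lists were chosen with earlier results of these data known.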

Additional observations from a re-analysis of the deposited data

How the results depend on the processing

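With LPS over vehicle and with calycosin plus LPS over vehicle, all 8 members were higher under each of 19 alternatives. With calycosin plus LPS over LPS, the count of members called was less stable. Members called lower numbered 4 with DESeq2 (Gbp2 -0.36, adjusted p = 0.0136, and Gbp5 -0.28, adjusted p = 0.0472, joined), 0 with limma on log2(TPM + 1), 0 on log2(TPM + 0.1) and 1 on log2(TPM + 1) without a filter. They numbered 4, with 2 higher, when vehicle library 3 and calycosin plus LPS library 2 were both left out, and 5, with 1 higher, with the mitochondrial share as a covariate. Leaving out 1 library gave 2 to 3 lower and 0 to 1 higher. Gbp3 ranged from -0.99 to -0.62 and its adjusted p from 1.07e-15 to 0.168; Gbp6 ranged from -1.04 to -0.62 and its adjusted p from 1.13e-07 to 0.110. On the 3 TPM settings Gbp5 reversed to 0.061 in each, and Gbp7 reversed to 0.496, 0.497 and 0.496. The cause was not tested.

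Counts over all genes moved on the TPM scale, where log2(TPM + 1), log2(TPM + 0.1) and no filter gave 1529, 1531 and 1503 genes higher with LPS over vehicle, and 7197 and 7242 lower with the first 2 settings. The same 3 settings gave 313, 319 and 300 genes lower with calycosin plus LPS over LPS, and 1204 higher with log2(TPM + 1) and 897 without a filter. They gave 1482, 1485 and 1412 genes higher with calycosin plus LPS over vehicle. The mitochondrial covariate gave 3282 genes lower with calycosin plus LPS over LPS, and leaving out 1 library gave 1224 (without calycosin plus LPS library 1) to 2576. The median over all genes on log2(TPM + 1) was -0.49 with LPS over vehicle and -0.29 with calycosin plus LPS over vehicle.

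A replicate block changed no call of a member, with 8 higher over vehicle and 2 lower with calycosin plus LPS over LPS (Gbp3 -0.94, adjusted p = 0.00375; Gbp6 -0.99, adjusted p = 0.0121). Same-numbered libraries deviated together in only 2 of 9 pairs (correlations -0.17 to 0.36, with 2 above 0.1), so the numbers were not taken as pairing. Summing members that share sequence was not run as planned, since no 2 members shared 10% of their 100-base runs. Depth limits the folds over vehicle, which rest on 8 to 27 pooled vehicle counts for Gbp5, Gbp4, Gbp6 and Gbp2.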
